A study of Homo sapiens with 6 samples.

Results

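The genes examined were 10 markers of tubular injury and repair, namely HAVCR1, LCN2, SPP1, CLU, VCAM1, ICAM1, SOX9, CD24, PROM1 and SAA1. They were taken by symbol from a table of reads per gene, and all 10 were found among its 26899 genes. The cells were HK-2, a widely used cell line made from human proximal tubule epithelium by transformation with human papillomavirus, grown with serum and transfected with plasmids by a lipid reagent. 3 libraries of polyadenylated RNA were labelled ANXA2 knockdown and 3 were labelled wild type in their titles and shCtrl in their descriptions, so whether the control cells carried a control hairpin is not settled by the labels. No time after transfection or clone was stated, and nothing in the labels says that the 3 replicates of a label came from separate cultures, so the spread between them may be technical.

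Proximal tubule cells that are damaged by low oxygen, toxins or inflammation lose part of their specialised programme and switch on a set of genes that are low in the healthy proximal tubule. Some encode proteins that are shed or secreted and can be measured in urine (HAVCR1 and LCN2), others encode adhesion molecules for leukocytes (ICAM1 and VCAM1), and others mark cells that divide to replace those lost (SOX9, CD24 and PROM1). Several of them, including LCN2, SAA1, ICAM1 and VCAM1, are known targets of the inflammatory transcription factor NF-kB.

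The libraries held 24231267 to 34561675 counted reads. ANXA2, the targeted gene, had 40453, 47742 and 52187 reads in the libraries labelled control and 52479, 51549 and 43849 in those labelled knockdown. Its log2 fold change was -0.05 ± 0.075 (standard error, edgeR quasi-likelihood test, adjusted p 0.848). The targeted transcript was thus not detectably lower, and each direction below is a difference between the libraries labelled knockdown and labelled control. The markers of the kidney tubule were read in part, and 8 of 22 proximal tubule genes passed the low-count filter. The lineage factor PAX8 reached 76.14 to 149.61 FPKM (fragments scaled for transcript length and sequencing depth, as deposited), the brush border enzyme gene GGT1 60.44 to 80.26 FPKM and the kidney cadherin gene CDH16 3.97 to 6.49 FPKM. LRP2, the endocytic receptor megalin of the mature proximal tubule, had 1 read in all 6 libraries, and the transporter gene SLC34A1 had 5 to 22 reads per library. Of 20 markers of leukocytes, endothelium, stroma, podocytes and other nephron segments, 9 were in the table, the highest at 1.71 FPKM. Control replicate 1 and knockdown replicate 3 stood apart from the other 4 libraries in inflammatory genes, as detailed with LCN2 below, and the estimates for the tested markers are also given without both.

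In order to set the baseline of the markers in cultured HK-2 cells, their deposited FPKM values were compared, since these are scaled for transcript length. SPP1, which encodes the secreted matrix phosphoprotein osteopontin, was the most abundant marker at 609.9 ± 149 FPKM in the libraries labelled control and 644.4 ± 29.7 in those labelled knockdown (SD, n = 3). Among 26803 genes with FPKM values, 94 had a higher mean. ICAM1, LCN2 and CD24 followed with means over all 6 libraries of 101.1, 94.32 and 57.92 FPKM, and their order was not resolved, since each pair of neighbours kept its order in 4 of the 6 libraries. HAVCR1, which encodes the shed membrane protein KIM-1, came next with a mean of 23.84 FPKM and lay below CD24 in all 6 libraries. SAA1 averaged 19.62 and CLU 7.043 FPKM, and neither was separated from its neighbour above. VCAM1 at 1.492 and SOX9 at 0.7017 FPKM were lower still, and VCAM1 exceeded SOX9 in each of the 6 libraries although their ranges met.

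PROM1, which encodes the progenitor antigen CD133, was the exception, being nearly unread. It had 6, 2 and 0 reads in the libraries labelled control and 1, 0 and 7 in those labelled knockdown, or 16 reads in all. A count of 0 allows up to 3 reads, which is 0.0963 CPM (reads scaled for library depth) in control replicate 3 and 0.0909 CPM in knockdown replicate 2, and such limits cover counting error only. PROM1 did not pass the low-count filter, so 9 of the 10 markers were tested. CD24, often used together with PROM1 to mark scattered tubular progenitor cells, was abundant in these libraries.

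**Figure D1:**
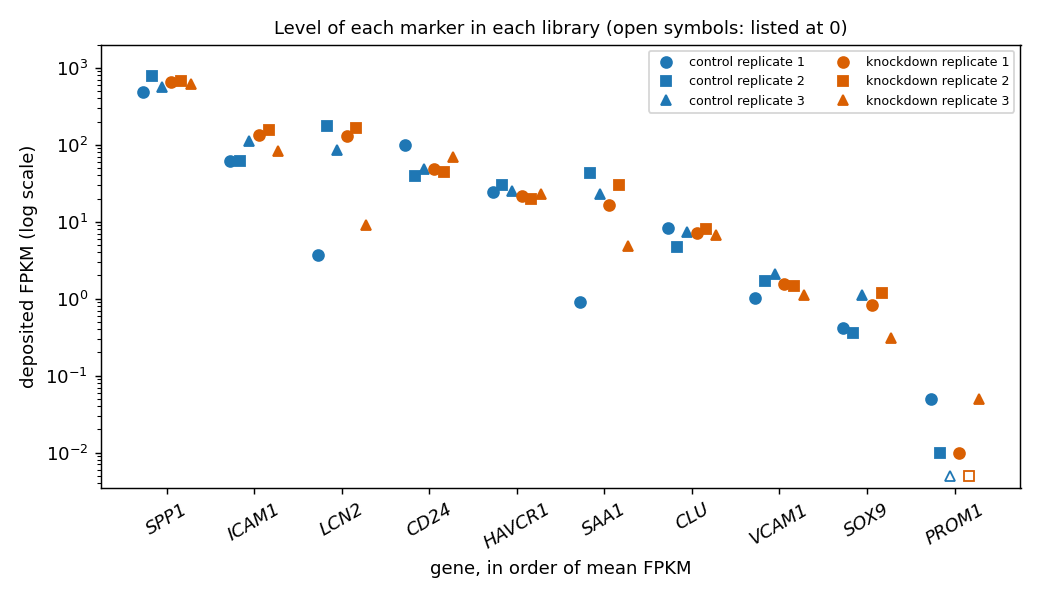
Deposited FPKM (log axis) of the 10 markers in each of the 6 libraries, ordered by mean, with circles, squares and triangles for replicates 1, 2 and 3 and open symbols for values listed at 0. SPP1 lies above all other markers in every library, and LCN2 and SAA1 are lowest in control replicate 1 and next lowest in knockdown replicate 3.

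The most variable markers were the secreted iron-siderophore carrier LCN2 and the acute-phase protein gene SAA1, and this variation ran within the labels. LCN2 (chromosome 9 from 128149071 to 128153453, GRCh38) had 99, 6140 and 2952 reads in control replicates 1, 2 and 3, and 4911, 6070 and 290 reads in knockdown replicates 1, 2 and 3. In FPKM these were 3.66, 172.87 and 86.1 against 129.07, 165.07 and 9.13. The 4 high libraries came from both labels, as did the 2 low ones, so the groups overlapped along nearly their whole range. In bulk RNA of this kind, fewer cells expressing a gene and less RNA per cell cannot be told apart. After scaling, LCN2 spanned 46.3-fold among the libraries labelled control and 18.3-fold among those labelled knockdown. The SD between replicates was 2.65 on the log2 CPM scale, and 3 of 15299 tested genes had a larger one, whereas the median over all tested genes was 0.224.

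SAA1 (chromosome 11 from 18266260 to 18269977) had 18, 1122 and 572 reads in the libraries labelled control and 462, 802 and 112 in those labelled knockdown. The lowest library was again control replicate 1 and the next lowest knockdown replicate 3. The spread between replicates was 2.26 on the log2 CPM scale, and 7 tested genes had a larger one. The ratio of LCN2 to SAA1 in FPKM was 4.02, 4.02 and 3.79 in the libraries labelled control and 7.8, 5.56 and 1.9 in those labelled knockdown. The ratio thus varied far less than either gene did alone.

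Part of the SAA1 reads could belong to a near copy. In GENCODE transcripts, 20.1% of the windows of 100 bases in SAA1 also occur in SAA2, and the sources used here do not say how reads matching both were counted. SAA2 had 9, 175 and 188 reads in the libraries labelled control and 178, 252 and 66 in those labelled knockdown. The readthrough transcript SAA2-SAA4 had 5, 69 and 60 against 44, 72 and 1 reads, and SAA4 had 0, 16 and 15 against 16, 17 and 2. All 3 neighbours were thus lowest in control replicate 1 or knockdown replicate 3. With reads of SAA1, SAA2 and SAA2-SAA4 summed, the abundance was 1.312, 41.79 and 26.32 CPM against 20.04, 34.1 and 6.2 CPM, which left the order of the libraries as it was for SAA1 alone.

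**Figure D2:**
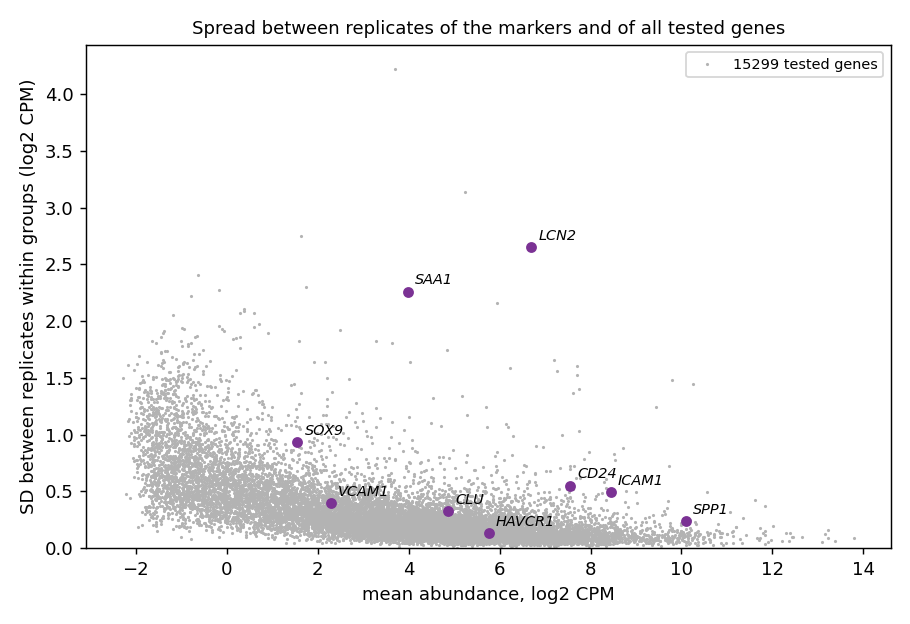
SD between replicates within groups (log2 CPM, vertical axis) against mean abundance (log2 CPM, horizontal axis) for the 15299 tested genes in grey and the 9 tested markers in purple. LCN2 at 2.65 and SAA1 at 2.26 sit far above genes of like abundance, whereas HAVCR1 at 0.136 lies among the steady genes.

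To show the promoter sequence next to these genes, windows from 250 bases before to 50 bases after the start were taken from RefSeq (GRCh38.p14). The search covered 12 windows for 7 of the 10 markers, and the promoters of CLU, SOX9 and SAA1 were not searched. The windows were searched on both strands for the kB consensus, the STAT palindrome TTCNNNGAA and the TEAD motif GGAATG. Capitals mark the match in the 4 stretches below, which are shown because LCN2 and VCAM1 were lowest in the same pair of libraries, CD24 was highest in that pair, and ICAM1 had the largest estimated difference between the labels. They lie at chr9:128149248-128149317 (plus strand, match 175 bases before the start, kB), chr1:100719650-100719719 (plus strand, 62 bases before, kB), chr19:10271015-10271083 (plus strand, 75 bases before, STAT) and chr6:106975736-106975805 (minus strand, 148 bases before, kB).
LCN2: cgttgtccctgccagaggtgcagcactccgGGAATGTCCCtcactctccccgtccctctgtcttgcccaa
VCAM1: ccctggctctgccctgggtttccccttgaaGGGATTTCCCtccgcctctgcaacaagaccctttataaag
ICAM1: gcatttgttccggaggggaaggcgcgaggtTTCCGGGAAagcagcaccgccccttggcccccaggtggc
CD24: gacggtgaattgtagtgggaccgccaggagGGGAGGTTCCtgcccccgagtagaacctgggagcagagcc

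The LCN2 match is to the minus strand and overlaps a TEAD motif on the plus strand. CD24 had 3 windows, and further kB matches not shown lay 72 bases before the same start and 92 bases before another start. The kB consensus was also found in 11.3% of all 35116 windows of this length, the STAT palindrome in 7.66% and the TEAD motif in 14%. Of the windows searched, those of HAVCR1, SPP1, ICAM1 and PROM1 held no kB match, which says only that these letters are not in that window.

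The libraries were next compared by a list of 17 inflammatory genes known to be driven by NF-kB, of which 16 were in the table and tested. Their summed level was 1403, 5046 and 6388 CPM in control replicates 1, 2 and 3, and 6245, 7694 and 2373 CPM in knockdown replicates 1, 2 and 3. Such a sum mostly follows the most abundant genes, such as CXCL8 at 1472 CPM and SOD2 at 1135 CPM in control replicate 2. Control replicate 1 and knockdown replicate 3 were the lowest pair of libraries for 11 of the 16 genes (68.8%), against 13.9% of all tested genes. This pair was picked for standing apart in inflammatory genes, so a larger share in this list was favoured in advance. The same pair was lowest for 3 of the 9 tested markers, namely LCN2, SAA1 and VCAM1. CXCL8, the neutrophil chemokine interleukin 8, had 88.36, 704.65 and 874.06 FPKM in the libraries labelled control and 681.67, 855.19 and 257.85 in those labelled knockdown. C3, the central complement component, had 7.99, 70.64 and 37.02 against 43.2, 57.62 and 9.1 FPKM, and like LCN2 and SAA1 it was highest in control replicate 2. The part that this difference between libraries plays in the values of the markers was not tested.

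CD24, a small glycosylphosphatidylinositol-anchored surface protein, ran the other way. It had 98.97, 39.56 and 48.58 FPKM in the libraries labelled control and 47.8, 44.03 and 68.59 in those labelled knockdown. Control replicate 1 was highest and knockdown replicate 3 second, an order shared by 11.8% of tested genes without regard to which of the pair was first. Among the transcripts of other genes, 0.504% of the CD24 windows of 100 bases recurred, all of them in a processed pseudogene.

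**Figure D3:**
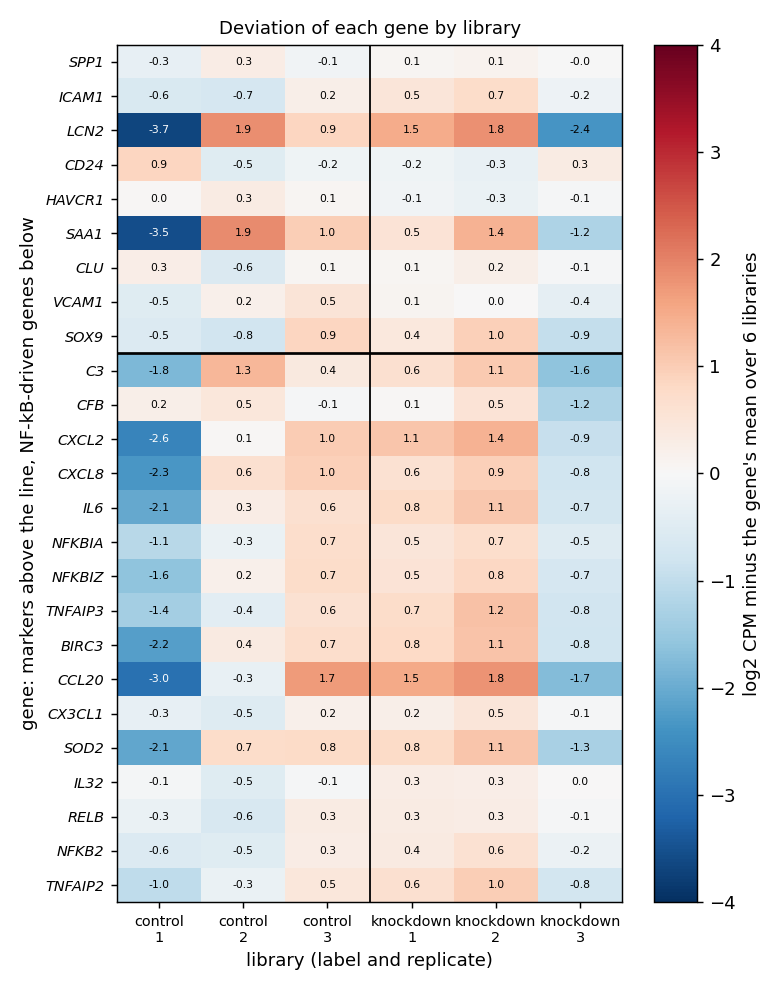
Deviation of log2 CPM from the mean of the 6 libraries for the 9 tested markers (above the line) and 16 NF-kB-driven genes (below it), with 1 column per library. LCN2 deviates by -3.66 in control replicate 1 and by -2.36 in knockdown replicate 3, most of the genes below the line are blue in the same columns, and CD24 is red there.

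Whether the markers differed between the labels was then tested. By edgeR, 0 of the 9 tested markers passed an adjusted p of 0.05, as did 0% of the 15299 tested genes. At an unadjusted p under 0.05 there were 2 markers, against 8.18% of all tested genes. They were ICAM1 with a higher estimate (3.86% of tested genes were higher at this p) and HAVCR1 with a lower one (4.32%). Neither stayed under it with the replicate numbers as a block (edgeR unadjusted p 0.0583 and 0.0546). The same held without control replicate 2 (edgeR unadjusted p 0.117 and 0.0962) and without knockdown replicate 1 or 2. HAVCR1 alone stayed under it by DESeq2, and likewise by edgeR without control replicate 1. Both stayed under it with each other scaling and filter and in each limma run. Likewise both did without control replicate 3, without knockdown replicate 3, and without control replicate 1 and knockdown replicate 3 together. DESeq2 and limma-voom also called 0 of the 9 markers, while over all tested genes DESeq2 called 37 and limma-voom 0. Of the 9 estimates, 5 were above 0 (49% of all tested genes) and 4 below, with a median log2 fold change of 0.097 against -0.00645 over all tested genes.

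ICAM1, an adhesion receptor for leukocyte integrins, had 62.14, 60.84 and 111.07 FPKM in the libraries labelled control and 132.07, 157.22 and 83.11 in those labelled knockdown. Both highest libraries were labelled knockdown, yet control replicate 3 exceeded knockdown replicate 3, so the groups overlapped. No marker had all libraries labelled knockdown above all labelled control, an arrangement found for 7.94% of tested genes. By edgeR the log2 fold change was 0.69 ± 0.275 (standard error, adjusted p 0.605, unadjusted p 0.0338), and the 95% interval of the difference ran from 4.621% to 147.4%. An exact two-sided permutation test gave a p of 0.2, and no p below 0.1 is possible with 3 against 3 libraries. Without control replicate 1 and knockdown replicate 3 the estimate was 0.78 with an edgeR adjusted p of 0.21. With 1 library left out, estimates ran from 0.48 (knockdown replicate 2 omitted) to 1.03 (control replicate 3 omitted). When edgeR was run without its low-count filter, ICAM1 passed with an adjusted p of 5.45e-07, the low end of a range that reached 0.988 over its 17 alternatives. That run estimated no spread particular to each gene, and it called 165 genes. ICAM1 lies on the plus strand of chromosome 19 from 10271093 to 10286615, and 815 of its 3448 exonic bases are overlapped by the antisense gene ICAM4-AS1. The libraries were directional, but the sources used here do not say whether strand was used in counting, so a part of these reads could be antisense.

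HAVCR1, a phosphatidylserine receptor by which injured tubule cells take up debris, had 24.26, 30.39 and 24.77 FPKM in the libraries labelled control and 21.31, 19.63 and 22.69 in those labelled knockdown. All 3 libraries labelled knockdown lay below all 3 labelled control. Such a separation in this direction was found for 1 of the 9 markers and for 7.7% of all tested genes. By edgeR the log2 fold change was -0.30 ± 0.117 (standard error, adjusted p 0.605, unadjusted p 0.0283), with a 95% interval from -32.61% to -2.753%, and the exact permutation p was 0.1, the smallest possible. Leaving out 1 library gave estimates from -0.36 to -0.20. Without control replicate 1 and knockdown replicate 3 the estimate was -0.40 with an edgeR adjusted p of 0.228, the lowest of its 17 alternatives, which reached 0.988. HAVCR1 had the smallest spread between replicates of the 9 tested markers, 0.136 on the log2 CPM scale.

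The other secreted injury markers were within the spread between replicates. SPP1 had 488.01, 776.16 and 565.5 FPKM in the libraries labelled control and 649.68, 671.07 and 612.31 in those labelled knockdown. The knockdown values lay inside the range of the controls, and the log2 fold change was 0.097 (95% interval from -14.7% to 34.03%, edgeR adjusted p 0.86). CLU, which encodes the extracellular chaperone clusterin, had 8.31, 4.72 and 7.28 against 7.23, 8.01 and 6.71 FPKM. Control replicate 2 was the low value, and the log2 fold change of 0.13 (interval from -20.05% to 49.08%, edgeR adjusted p 0.868) became -0.082 without it. The SPP1 estimate turned to -0.034 when control replicate 1 was left out, and to 0.30 when control replicate 2 was. Without control replicate 2, SPP1 was the only marker at an unadjusted p under 0.05 (edgeR unadjusted p 0.0105, adjusted p 0.92). Without control replicate 1 and knockdown replicate 3 together the estimate was 0.0080 for SPP1 and 0.37 for CLU, with edgeR adjusted p of 0.982 and 0.391.

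For LCN2 the log2 fold change was 0.24 ± 1.09 (standard error, edgeR adjusted p 0.962), and the interval from -78.69% to 550% shows how little the 6 libraries could resolve. Omitting control replicate 1 turned it to -0.32, omitting knockdown replicate 2 to -0.31 and omitting control replicate 2 to 1.19. SAA1 had a log2 fold change of -0.36 ± 0.924 (standard error, edgeR adjusted p 0.926, interval from -81.63% to 229.5%). Omitting control replicate 2 turned it to 0.53, omitting knockdown replicate 2 to -1.03 and omitting knockdown replicate 3 to 0.078. Without control replicate 1 and knockdown replicate 3 together, the estimates were 0.22 for LCN2 and -0.48 for SAA1, with edgeR adjusted p of 0.707 and 0.472 (ranges over 17 alternatives 0.67 to 0.998 and 0.472 to 1).

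VCAM1, the partner of ICAM1 in leukocyte adhesion, had 1.03, 1.7 and 2.09 FPKM in the libraries labelled control and 1.54, 1.46 and 1.13 in those labelled knockdown. The ranges overlapped, and the log2 fold change was -0.21 ± 0.28 (standard error, edgeR adjusted p 0.843, interval from -44.1% to 33.91%). It came to 0.028 when control replicate 3 was left out and to -0.44 when control replicate 1 was, and to -0.31 (edgeR adjusted p 0.522) without control replicate 1 and knockdown replicate 3. ICAM1 and VCAM1 were thus of opposite sign, and the difference between their changes was not tested.

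Of the repair markers, SOX9, a transcription factor of dividing tubule cells, had 42, 48 and 145 reads in the libraries labelled control and 118, 165 and 37 in those labelled knockdown. 3 libraries lay high and 3 low, and both kinds came from both labels. The log2 fold change was 0.31 ± 0.55 (standard error, edgeR adjusted p 0.884, interval from -47.48% to 193%). Omitting control replicate 3 turned it to 1.03 and omitting knockdown replicate 2 to -0.14, and without control replicate 1 and knockdown replicate 3 it was 0.47 (edgeR adjusted p 0.634). For CD24 it was -0.21 ± 0.314 (standard error, edgeR adjusted p 0.859, interval from -47.15% to 40.92%). Omitting control replicate 1 turned it to 0.30, and omitting knockdown replicate 3 as well to 0.088.

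**Figure D4:**
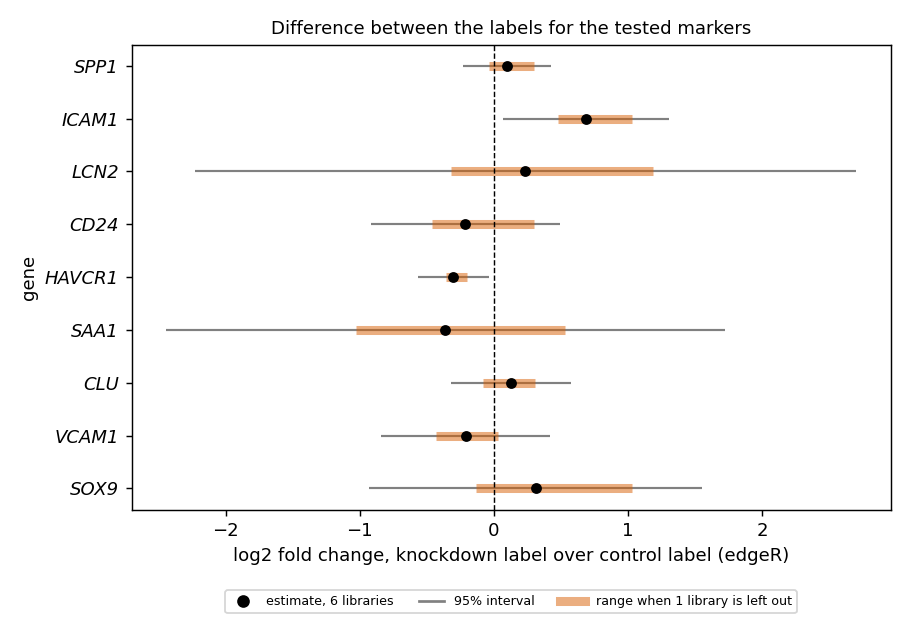
edgeR log2 fold change of the 9 tested markers, knockdown label over control label, with the 95% interval (grey line) and the range of estimates when 1 library is left out (orange bar). ICAM1 at 0.69 and HAVCR1 at -0.30 keep their sign in each omission of 1 library, and the bars of the other 7 markers cross 0.

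Other genes linked to tubular injury were examined in the same fit. Of 22 genes listed as raised in injured tubules, 19 were tested, 14 of them with estimates above 0 and 5 below, and 0 passed the adjusted threshold by edgeR (2 at an unadjusted p under 0.05). Over all tested genes 49% of estimates were above 0 and 8.18% reached that p. The median log2 fold change of the list was 0.13 against -0.00645 over all tested genes. The smallest p-values belonged to the calcium-binding protein gene S100A6 (0.30, unadjusted p 0.0289), the heme oxygenase gene HMOX1 (0.49, 0.0383) and the keratin gene KRT7 (0.55, 0.0835). The matrix protease gene MMP7 had 6.51, 30.85 and 24.53 FPKM in the libraries labelled control and 21.5, 28.21 and 4.43 in those labelled knockdown. It was thus low in the same pair of libraries as LCN2 (named after its values were seen). That pair was lowest for 6 of the 19 genes (31.6%) and highest for 4 (21.1%), against 13.9% and 11.8% of all tested genes.

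Of 16 further genes of repairing tubule cells, 15 were tested, with 7 estimates above 0 and 8 below, a median of -0.074, and 0 calls by edgeR (1 at an unadjusted p under 0.05). VCAN, which encodes the matrix proteoglycan versican, had a log2 fold change of -0.65 (unadjusted p 0.0197), the cadherin gene CDH6 of the developing tubule -0.38 (0.0596) and the matrix glycoprotein gene TNC -0.60 (0.0654). In 2 of the 15, VCAN and CDH6, the groups were without overlap, both lower under the knockdown label, against 15.6% of all tested genes in either direction and 7.7% in this one. Of the 16 tested genes driven by NF-kB, 14 had estimates above 0 and 2 below, with a median of 0.41 and 0 calls by edgeR (1 at an unadjusted p under 0.05). The cytokine gene IL32 (0.40, edgeR unadjusted p 0.0126), the chemokine gene CX3CL1 (0.43, 0.0603) and the NF-kB subunit gene NFKB2 (0.48, 0.0968) had the smallest p-values. IL32 alone of the 16 had groups without overlap, higher under the knockdown label, against 7.94% of all tested genes in that direction. The list's 14 of 16 stand beside 49% of all tested genes above 0, its median beside -0.00645, and its 1 gene at that p beside 8.18%. Control replicate 1 was the lowest library for 12 of the 16 genes (75%), against 21% of all tested genes, and its part in these estimates was not tested. Without it 11 of the 16 estimates were above 0 with a median of 0.108. Without knockdown replicate 3 as well 14 were, with a median of 0.443 (8 at an unadjusted p under 0.05 and 0 called by edgeR). Over all tested genes 14.8% were then at that p. The pair was picked for standing apart in inflammatory genes, so a larger share in this list was favoured in advance.

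Receptors, sheddases and cytoplasmic partners of the markers were tested for 16 of 21 genes, 5 with estimates above 0 and 11 below. Their median was -0.12, with 0 calls by edgeR (2 at an unadjusted p under 0.05). Over all tested genes 49% of estimates were above 0, the median was -0.00645 and 8.18% reached that p. ITGB1, the integrin beta chain shared by osteopontin and VCAM1 receptors, had a log2 fold change of -0.33 (unadjusted p 0.0153). ADAM10, a protease that sheds membrane proteins, had -0.48 (0.0241), and ITGA4, the alpha chain of the VCAM1 receptor, had -0.83 (0.0662) at 0.13 to 0.27 FPKM. These 3 of the 16 genes had groups without overlap, all lower under the knockdown label, against 7.7% of all tested genes in that direction. CD44, a further osteopontin receptor (named for that role), ranged from 92.54 to 171.68 FPKM under the control label and from 97.4 to 132.08 FPKM under the knockdown label.

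Among 18 family relatives, 8 were tested and 0 were called by edgeR (0 at an unadjusted p under 0.05), with ICAM3 (0.17), ICAM5 (-0.16) and PROM2 (0.18) having the smallest p-values. PROM2, the relative of PROM1, had 40 to 78 reads per library. ICAM4, which lies beside ICAM1, had 0, 0 and 11 reads in the libraries labelled control and 10, 13 and 0 in those labelled knockdown, and was thus read only in the 3 libraries where ICAM1 was highest. Of 22 proximal tubule genes, 8 were tested and 0 called by edgeR (0 at an unadjusted p under 0.05), the smallest p-values being those of CDH16 (0.29), PAX8 (0.22) and GGT1 (0.11). Of the 20 markers of other cells, 4 were tested and 0 called by edgeR (0 at an unadjusted p under 0.05). ITGAM (1.28), CD14 (0.52) and CD68 (0.39) had the smallest p-values. ITGAM had only 0 to 26 reads per library, and its 95% interval ran from -41.86% to 911.1%.

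Finally, genes whose pattern over the 6 libraries was most like that of a marker were sought for the 5 markers that spanned more than 1 on the log2 CPM scale. Likeness was the mean absolute difference between the deviations of each gene from its own mean, over 6 libraries and 13222 genes with a mean of at least 1 CPM. For LCN2 the closest gene was SAA1 itself at 0.457, followed by C1QTNF1 at 0.533 and C6orf58 at 0.58. For SAA1 they were C6orf58 at 0.243, VNN1 at 0.261 and SVILP1 at 0.297. The closest to ICAM1 were CSF1 at 0.0789, RNF24 at 0.0942 and NCCRP1 at 0.0949. The closest to SOX9 were LRRC3 at 0.146, GBP2 at 0.195 and EPHA3 at 0.207, and the closest to CD24 were CASKIN2 at 0.0471, ZFP41 at 0.0863 and RN7SL832P at 0.0897. All these values come from the same 6 libraries and are given as a description.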

How the data were processed

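The counts deposited by the authors are raw reads per gene in 6 libraries of directional poly(A) RNA, and the deposited FPKM values are rounded to 2 decimals. The processing notes of the submitters name GRCh38, bcl2fastq, TopHat2 and edgeR. The sources used here do not give the counting program, the annotation or the use of strand. Counts were scaled by TMM and tested by quasi-likelihood in edgeR 4.0.16 (R 4.3.3) on all 6 libraries without covariates, after the default low-count filter (count 10, total 15), which left 15299 genes. Tests were two-sided, with Benjamini-Hochberg adjustment over all tested genes. CPM are TMM-scaled, and log2 CPM has a prior count of 2. The fit was tested on simulated data in which all genes shared the same spread beyond counting error, unlike the genes here. Alternatives were RLE, upper-quartile and library-size scaling, no filter or 1 CPM in 3 libraries, DESeq2 1.42.0, limma 3.58.1 (voom, and log2 of FPKM + 1 or + 0.1), a replicate block and omission of libraries. Replicates were no duplicates (chi-square per degree of freedom 10.3 to 54.2). Locations are from GENCODE release 44 (GRCh38).

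Genes named in the text were the 10 markers, ANXA2, the 3 genes of each list with the smallest p, the 3 genes most like each variable marker, and SAA2, SAA4 and SAA2-SAA4. Any other gene was chosen after its values were seen. The markers and lists were chosen with earlier results of these data known.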

Additional observations from a re-analysis of the deposited data

How the results depend on the processing

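Over 17 alternatives for each of the 9 tested markers, 138 of 153 estimates stayed uncalled with the same sign, 14 turned sign and 1 passed the threshold. The omission of control replicate 1 and knockdown replicate 3 together was chosen after seeing the data. The count of called markers was 0 except without the low-count filter, where it was 1 (ICAM1, log2 fold change 0.6865, and 165 genes in all). The count of called genes was 165 without that filter, 37 by DESeq2 and 0 to 4 when 1 library was left out. It was 6 without control replicate 1 and knockdown replicate 3, and the other alternatives gave 0.

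SAA1 changed sign with limma-voom (0.303), with log2(FPKM + 1) (0.2157), with log2(FPKM + 0.1) (0.43) and with the replicate block (0.005104), and CD24 without control replicate 1 and knockdown replicate 3 (0.08776). For these turns the cause was not tested. The omission of 1 library gave -1.029 to 0.5282 for SAA1, -0.3228 to 1.185 for LCN2, -0.03378 to 0.2999 for SPP1, -0.4588 to 0.2977 for CD24, -0.08166 to 0.3077 for CLU (0.3725 without control replicate 1 and knockdown replicate 3), -0.4353 to 0.02771 for VCAM1 and -0.1354 to 1.031 for SOX9. ICAM1 and HAVCR1 kept their sign in all 17 alternatives.

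No strong effect shared by same-numbered libraries was seen. Their deviations correlated at -0.0616, 0.118 and -0.203, and 1 control library of 3 correlated best with its own number. Deviations from the mean of only 3 libraries depend on one another, so this cannot tell whether the libraries were prepared in pairs. With the replicate block 0 genes and 0 markers passed (1076 genes at an unadjusted p under 0.05). SAA1 had 18 to 1122 reads per library, SOX9 37 to 165 and PROM1 0 to 7.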
